A study of Mus musculus with 6 samples.

Results

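Processed pseudogenes that collected sequencing reads in DC2.4, a line of mouse dendritic cells, are described here. They were chosen by their level: all genes that the deposited table classes as processed pseudogenes and that averaged at least 5 CPM over 6 RNA sequencing libraries, where CPM is the count of a gene scaled to a library of 1000000 counts. Of 9497 processed pseudogenes among the 54532 genes of the table, 2742 had a count in at least 1 library and 204 met this level. The libraries formed 2 groups of 3. One came from cells labelled as overexpressing Vdbp, the vitamin D-binding protein whose mouse gene is Gc, and the other from cells that received the empty vector. The vector is given as pTT5, and all cells of both groups went through the same steps, transfection, passage 48 h later and selection. The sources used here give neither its promoter nor the species of the Vdbp insert. They also do not say whether libraries of 1 group stem from separate cultures, so the p-values speak of the spread between these libraries, which may be technical.

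A processed pseudogene is a copy of a messenger RNA that was reverse transcribed, by the enzyme of LINE-1 elements, and inserted elsewhere in the genome. Such copies lack introns and usually a promoter of their own, and genes that are highly transcribed in the germ line, such as those of ribosomal proteins and glycolytic enzymes, have left many. Young copies differ from the parent gene at few bases, so a short read from the parent's messenger RNA can match a copy as well as its source. The treatment of reads with several matches in the authors' counting is not given in the sources used here. A count of a pseudogene can therefore hold reads of its parent, and the reverse, and the levels below are those of the table and not a measure of transcription at the locus. The libraries are of bulk RNA, so more cells that carry an RNA and more of it per cell cannot be told apart.

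Library totals lay between 15563800 and 16710975 counts. Gc, the gene named on the labels, had 0 counts in all 3 Vdbp-labelled and all 3 empty-vector libraries, which allows up to 0.180 to 0.193 CPM per library (3 counts, for counting error only). The table thus gives no check of the Vdbp label, and each direction below is that of the libraries labelled Vdbp. All 12 genes of a dendritic and myeloid marker list had counts, 10 of them at 1 CPM or more, and Flt3 and Xcr1 stayed under 1 CPM. The list summed to 3080 to 3452 CPM in Vdbp-labelled and 3204 to 3422 CPM in empty-vector libraries, whereas 6 lymphocyte markers summed to at most 0.239 CPM in any library. A pair of libraries of the same group, empty-vector replicates 1 and 2, stood apart from the other 4 in the pseudogenes. Both lay above the other 4 in 33 pseudogenes, against 10.3% of all 12844 tested genes, and both lay below them in 58, against 13.4% of all tested genes. Those 91 pseudogenes are 44.6% of the 204, and the share among all tested genes was 23.7%. Results are given with and without this pair where it moves them. Without it the empty-vector group is 1 library, which in a test is assumed to vary like the Vdbp-labelled libraries, so counts of small p from that fit also reflect its size.

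The 204 pseudogenes were copies of 159 parent genes. The parent was named in the deposited description for 52 and was taken from the best match to protein-coding transcripts of GENCODE M21 (GRCm38) for 152, and in 4 cases (Dynlt1-ps1, Gm7730, Gm9826 and Gm5425) matches tied. Cytosolic ribosomal proteins, the protein components of the ribosome, were the parents of 68. RNA-binding and nucleolar proteins accounted for 13, a list that also held the histone chaperone Nap1l1, the parent of Gm4204. Glycolytic enzymes accounted for 9, mitochondrial proteins for 8, translation factors for 6, ubiquitin and proteasome proteins for 5, and chromatin proteins for 4. Cytoskeletal proteins were the parents of 3, chaperones of 2 and iron storage of 1, and the other 85 had parents outside these lists. Rps2 and Rpl7a, proteins of the small and the large ribosomal subunit, were the parents of 5 pseudogenes each, Rpl21 of 4, and Rpl17, Rpl23a, Gapdh, Hmgb1, Hnrnpa3 and Npm1 of 3 each. These are few of the copies that the table lists: 134 processed pseudogenes matched Rps2 best, 171 matched Rpl7a and 230 matched Gapdh.

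The pseudogenes that reached 5 CPM were mostly close copies of their parents. Their identity to the parent transcript had a median of 99.4%, while the 8824 other processed pseudogenes with a match had a median of 88.7%. Among processed pseudogenes aligned over at least 80% of their length, 132 of 549 at 99% identity or more were in the set (24.0%), 58 of 783 at 97 to under 99% (7.41%), 12 of 826 at 95 to under 97% (1.45%), and 1 of 5964 below that. High identity was not sufficient: 417 others had 99% or more. Where the parent itself was at 50 CPM or more, 113 of 345 copies at 99% or more were in the set (32.8%). The exception at low identity among those aligned over at least 80% was Gm14276, a copy of Rps2 at 85.9%. Without regard to aligned length, 2 pseudogenes of the set were under 95% identity. Identity was not used to choose the pseudogenes, and these counts are a description, since the level that was used may contain reads of the parent.

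**Figure D1:**
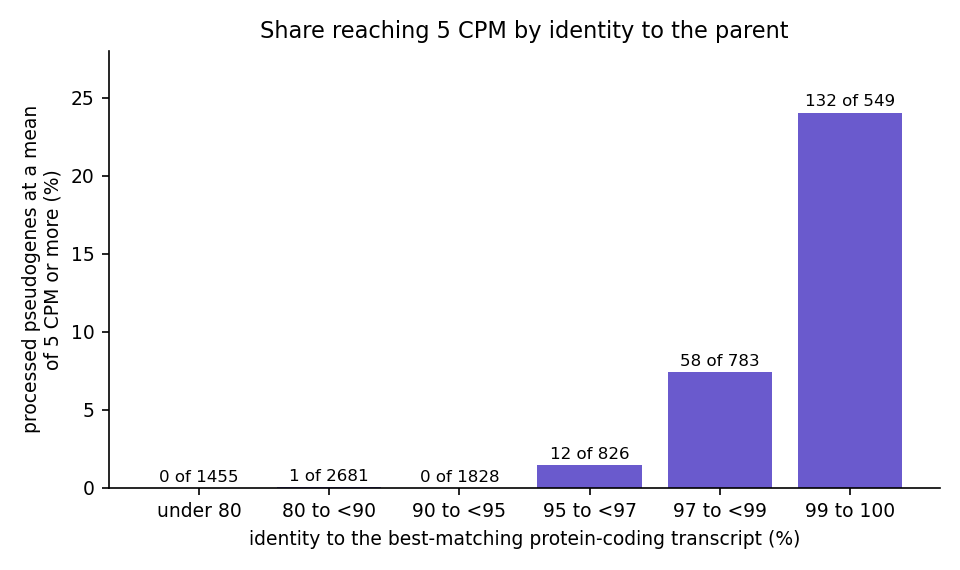
Bars give the percentage of processed pseudogenes at a mean of 5 CPM or more (y axis) by identity to the best-matching protein-coding transcript in percent (x axis), with the numbers above each bar, for copies aligned over at least 80% of their length. The share is 24.0% in the class at 99% or more and 1.45% in the class at 95 to under 97%.

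Most of the copies were short, of 1 exon, and covered the coding part of the parent. Their lengths ran from 151 to 6092 bases with a median of 636, and 201 had 1 exon. At least 99% of the parent's coding sequence was covered in 173. Over their whole length 37 were identical to the parent transcript, and 66 had 1 to 3 mismatches. Of all windows of 100 bases in a pseudogene, a median of 69.6% occurred unchanged in a transcript of another gene, and this was 85.4% for windows of 50 bases and 53.6% for windows of 150. Every 100-base window was shared in 42 pseudogenes and none in 3. They lay on 20 chromosomes, 13 of them on the chromosome of the parent, 62 overlapped the span of another gene on either strand, and 5 overlapped an exon of one.

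Together the 204 pseudogenes held 0.577%, 0.574% and 0.559% of the counts in Vdbp-labelled replicates 1, 2 and 3, and 0.589%, 0.561% and 0.588% in empty-vector replicates 1, 2 and 3. The groups overlapped, with means of 0.570 ± 0.010% in Vdbp-labelled and 0.579 ± 0.016% in empty-vector libraries (SD, n = 3 each, as for the sums below). The median pseudogene averaged 12.8 CPM, 80 were under 10 CPM, 31 reached 50 CPM and 8 reached 100 CPM. Just inside the limit were Gm10704 (5.03 CPM), Smarce1-ps1 (5.05 CPM) and Gm6311 (5.16 CPM), and just outside it were Gm18588 (4.98 CPM), Gm10254 (4.96 CPM) and Gm5454 (4.96 CPM). The ribosomal protein copies held 45.3% to 49.4% of these counts in each library, the largest share of any family list, with a summed level of 2765 ± 79.1 CPM in Vdbp-labelled and 2676 ± 117 CPM in empty-vector libraries. The 6 translation factor copies summed to 349 ± 31.0 CPM in Vdbp-labelled and 433 ± 72.7 CPM in empty-vector libraries, and the 9 glycolysis copies to 216 ± 27.1 CPM in Vdbp-labelled and 158 ± 26.0 CPM in empty-vector libraries. In empty-vector replicates 1, 2 and 3 these sums were 476, 475 and 349 CPM for translation factors and 151, 136 and 187 CPM for glycolysis. Replicate 3 thus lay within the Vdbp-labelled range for translation factors (320 to 382 CPM) and nearest to it for glycolysis (197 to 247 CPM).

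Per length, on the FPKM scale of the deposited table, the highest mean levels were those of Rpl17-ps10 (445 FPKM), Rps10-ps2 (416 FPKM), Gm10123 (402 FPKM), Rpl17-ps3 (301 FPKM) and Gm6136 (274 FPKM). Rpl17-ps10 (chromosome 7, 72648757 to 72649311, minus strand) is a copy of Rpl17, a protein of the large ribosomal subunit, at 99.3% identity. It had 254, 201 and 315 CPM in Vdbp-labelled replicates 1 to 3 and 227, 199 and 294 CPM in empty-vector replicates 1 to 3, so both groups spanned about the same range. Rpl17-ps3, with 153, 187 and 178 CPM in Vdbp-labelled and 170, 165 and 158 CPM in empty-vector libraries, was the steadier of these copies. The 3 copies of Rpl17 together held 71.3%, 62.3% and 74.7% of the counts of parent and copies in Vdbp-labelled libraries and 65.8%, 60.5% and 76.9% in empty-vector libraries. Where that share was low the parent was high: Rpl17 had 240 and 241 CPM in Vdbp-labelled replicate 2 and empty-vector replicate 2, and between 138 and 209 CPM in the other 4 libraries. The sum of parent and copies varied 1.16-fold between the lowest and the highest library, the copies alone 1.36-fold and the parent alone 1.74-fold.

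Gm6136 and Eif4a-ps4 were high in the same 2 libraries. Gm6136 (chromosome 1, 86908793 to 86909683, minus strand) copies Rpl6 of the large ribosomal subunit with 4 mismatches in 891 bases. It had 176, 177 and 209 CPM in Vdbp-labelled replicates 1 to 3, against 392, 351 and 165 CPM in empty-vector replicates 1 to 3. Eif4a-ps4 (chromosome 1, 60703932 to 60705149, plus strand) copies Eif4a1, an RNA helicase of translation initiation, with 1 mismatch in 1218 bases. It had 181, 204 and 223 CPM in Vdbp-labelled libraries, against 315, 301 and 208 CPM in empty-vector libraries. In both, empty-vector replicates 1 and 2 lay above the other 4 libraries while empty-vector replicate 3 lay below the Vdbp-labelled libraries for Gm6136 and within their range for Eif4a-ps4. The parents did not show this: Rpl6 had 1136, 1157 and 1128 CPM in Vdbp-labelled libraries and 1100, 955 and 1091 CPM in empty-vector libraries, and Eif4a1 had 1193, 1415 and 1338 CPM in Vdbp-labelled libraries and 1191, 1226 and 1349 CPM in empty-vector libraries.

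**Figure D2:**
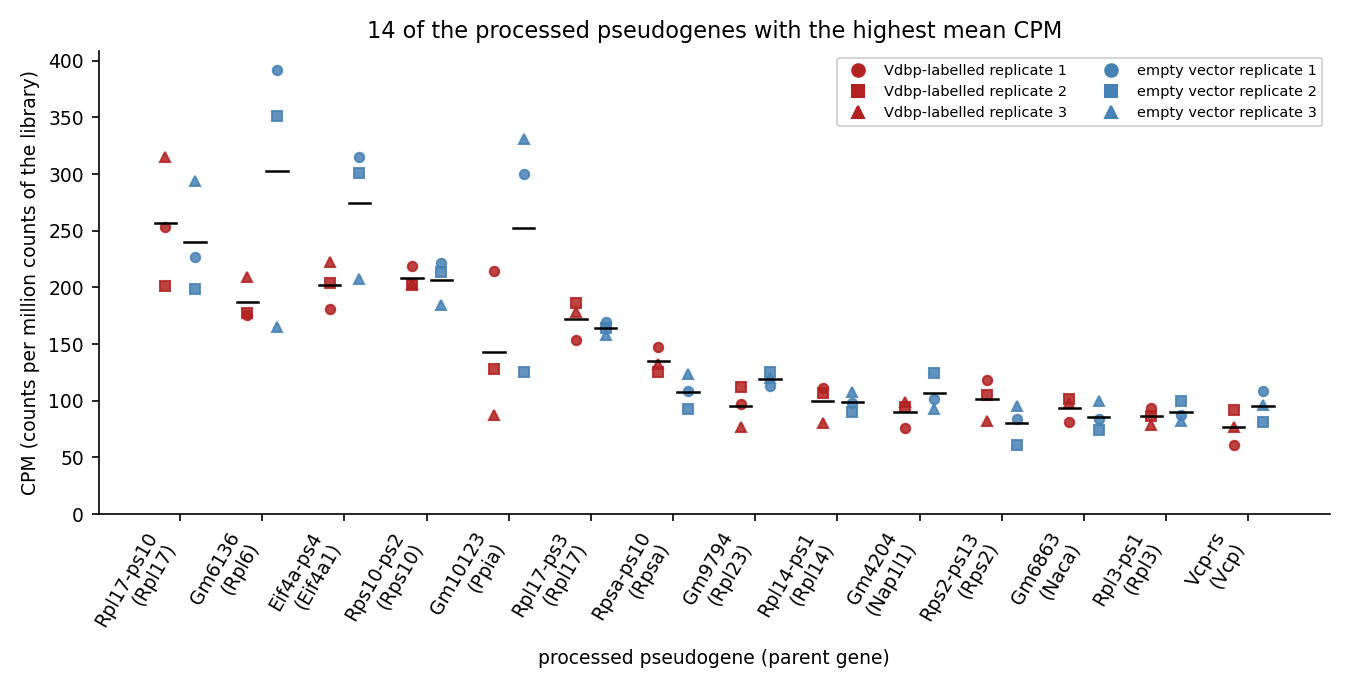
Points give CPM (y axis) of 14 of the processed pseudogenes with the highest mean CPM (x axis, parent in brackets) in each library, Vdbp-labelled in red left of empty vector in blue, with black lines at the group means (n = 3). Empty-vector replicates 1 and 2 of Gm6136, at 392 and 351 CPM, lie above the other 4 libraries, and the points of Rps10-ps2 lie between 184 and 221 CPM.

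Of the other copies among the 15 highest, Rpsa-ps10, from the laminin receptor and small-subunit protein Rpsa, had 147, 126 and 132 CPM in Vdbp-labelled libraries and 108, 92.8 and 123 CPM in empty-vector libraries, without overlap of the groups. Gm9794, from Rpl23, lay the other way, with 97.5, 112 and 77.0 CPM in Vdbp-labelled libraries below 113, 125 and 121 CPM in empty-vector libraries. The groups overlapped in Rpl14-ps1, Gm4204 (from the histone chaperone Nap1l1), Rps2-ps13, Gm6863 (from Naca, a nascent-chain binding protein), Rpl3-ps1 and Vcp-rs (from the ATPase Vcp), whose levels over the 6 libraries ran from 61.0 to 125 CPM. Rpl3-ps1, a copy with 2 mismatches in 1210 bases, was the steadiest of those named after Rps10-ps2 and Rpl17-ps3, with a highest library 1.26 times the lowest.

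In the Rps10 family the copy, and not the gene, held the counts. Rps10 encodes a protein of the small ribosomal subunit, and Rps10-ps2 (chromosome 16, 20822145 to 20822640, minus strand) and Rps10-ps1 (chromosome 3, 95622278 to 95622772, plus strand) are copies of its coding sequence at 98.99% and 98.79% identity. A stretch of 100 coding bases is shown, since within the aligned sequence the copies and the parent differ at single bases only. It was picked for the number of positions at which a copy differs, among stretches within limits on differences per copy and at the ends. It covers coding bases 376 to 475 of Rps10, counted from the A of the start codon, and lies at chr16:20822166-20822265 (minus strand) in Rps10-ps2 and chr3:95622653-95622752 (plus strand) in Rps10-ps1. The sequences are from GENCODE M21 (GRCm38), and capitals mark bases that differ from the parent and, in the parent, positions at which either copy differs.
Rps10-ps2: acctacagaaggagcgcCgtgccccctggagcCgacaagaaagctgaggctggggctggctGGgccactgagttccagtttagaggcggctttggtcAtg
Rps10-ps1: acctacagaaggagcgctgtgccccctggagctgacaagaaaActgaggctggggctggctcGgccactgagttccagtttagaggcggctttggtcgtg
Rps10: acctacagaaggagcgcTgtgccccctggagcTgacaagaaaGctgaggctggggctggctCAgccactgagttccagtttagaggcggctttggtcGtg
Rps10-ps2 differed from Rps10 at 5 of these bases, all of its mismatches, and Rps10-ps1 at 2 of its 6, and both differed from it at 1 position. Rps10-ps2 had 219, 202 and 203 CPM in Vdbp-labelled replicates 1 to 3 and 221, 214 and 184 CPM in empty-vector replicates 1 to 3. Rps10-ps1 had 20.7, 16.5 and 15.2 CPM in Vdbp-labelled and 14.3, 12.3 and 16.3 CPM in empty-vector libraries. Rps10 itself had 5.09, 5.20 and 4.56 CPM in Vdbp-labelled libraries and 3.79, 2.95 and 5.98 CPM in empty-vector libraries. Per length, the mean levels were 416 FPKM for Rps10-ps2, 32.0 FPKM for Rps10-ps1 and 1.98 FPKM for Rps10. The copies held 97.1% to 98.7% of the counts of the family in every library.

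Other families had the same order of levels. In 50 of the 204 the pseudogene had a higher mean FPKM than its parent, and the median ratio of pseudogene to parent was 0.313. FPKM divides by the table's gene length, which spans the whole of the parent's transcripts but mostly the coding part of a copy, and 12 of the 50 also had more counts than the parent. Besides both Rps10 copies and Rpl17-ps10, these were Rpl21-ps15, Mpc1-ps, Gm15920, Dynlt1-ps1, Gm3571, Gm5873, Gm7730, Gm5425 and Gstp-ps, named for this order after their values were seen. The order is that of the means and did not hold in every library. In empty-vector replicate 2 Gm15920 had 19.8 CPM and its parent Ndufa12 54.8 CPM. Rpl17-ps10 and Rpl21-ps15 also lay below their parents in that library. Mpc1-ps, a copy of a subunit of the mitochondrial pyruvate carrier, averaged 118 FPKM, against 5.29 FPKM for Mpc1. Gm3571, a copy of Fdps, an enzyme of the cholesterol pathway, averaged 27.1 FPKM, against 1.13 FPKM for Fdps. Gm7730, a copy of the nucleoside diphosphate kinase gene Nme2, averaged 51.8 FPKM, against 0.868 FPKM for Nme2. For Gm7730, Gm5425 and Dynlt1-ps1 the best matches tied, so the order is that against 1 of the tied genes. Gstp2, taken as the parent of Gstp-ps, had 0 to 0.241 CPM, so that order too depends on the gene taken as parent. In the Gapdh family, which is also named after its values were seen, the 3 copies summed to 79.3, 60.7 and 70.2 CPM in Vdbp-labelled libraries and 45.7, 34.2 and 59.7 CPM in empty-vector libraries. The parent Gapdh had 27.7, 234 and 24.3 CPM in Vdbp-labelled libraries and 21.3, 22.2 and 26.3 CPM in empty-vector libraries, so that 1 library, Vdbp-labelled replicate 2, stood above the other 5.

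The families with 3 or more copies, named for their number of copies, differed in how much of the counts the copies took. The 5 copies of Rps2 summed to 204, 178 and 197 CPM in Vdbp-labelled libraries and 167, 124 and 168 CPM in empty-vector libraries, which was 8.26% to 10.5% of the counts of parent and copies. The 4 copies of Rpl21, a protein of the large subunit, summed to 108, 139.9 and 89.1 CPM in Vdbp-labelled libraries and 73.4, 60.4 and 126 CPM in empty-vector libraries. They held 41.7% to 70.4% of their family's counts, and the share was lowest in empty-vector replicates 1 and 2, the libraries in which the parent Rpl21 was highest. The 3 copies of Rpl23a summed to 82.1, 84 and 81.7 CPM in Vdbp-labelled libraries and 81.9, 88.3 and 96.1 CPM in empty-vector libraries and were steady, at 1.18-fold between libraries.

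Copies of nuclear proteins took larger or smaller shares by family. The 3 copies of Hnrnpa3, an RNA-binding protein of messenger RNA processing, summed to 49, 60.7 and 45.4 CPM in Vdbp-labelled libraries and 44.2, 46.4 and 58.5 CPM in empty-vector libraries, and held 56.7% to 70.4% of the counts of parent and copies. The 3 copies of Hmgb1, a DNA-bending chromatin protein, summed to 48.3, 65.3 and 48.7 CPM in Vdbp-labelled libraries and 35.4, 36.1 and 53.6 CPM in empty-vector libraries, or 37% to 50.2% of their family's counts. The 3 copies of Npm1, the nucleolar protein nucleophosmin, summed to 35.8, 45 and 43.6 CPM in Vdbp-labelled libraries and 48.5, 60.5 and 43.3 CPM in empty-vector libraries, which was 4.55% to 6.39% of the family. Empty-vector replicates 1 and 2 were the lowest libraries for the sum of the Hmgb1 copies and the highest for that of the Npm1 copies.

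A wide range between libraries was more frequent among the pseudogenes than among all tested genes. The highest library was over 2 times the lowest in 57 of 204 (27.9%), against 13.7% of all tested genes, 1.89% of the 9548 protein-coding genes at 5 CPM or more, and 9 of the 159 parents (5.66%). The median of this ratio was 1.70 for the pseudogenes, 1.41 for all tested genes, 1.33 for the protein-coding genes and 1.35 for the parents. The groups of libraries were not used in these ratios. The sets were not matched for level: the median pseudogene averaged 12.8 CPM, and 12 of the 204 had more counts than their parent. How much of the wider range stems from counting error at lower levels was not tested. Over the 4 libraries without empty-vector replicates 1 and 2, where the ratio can only be smaller or the same, 17 pseudogenes (8.33%) passed 2-fold, against 8.07% of all tested genes and 0.566% of the protein-coding genes. Leaving out any 1 library gave 44 to 56. The spread was not wider in copies closer to their parents, since the median ratio was 1.59 in the 38 with 100% identity over the aligned part, 1.72 in the 94 at 99 to under 100%, and 1.72 in the 72 below that. Across pseudogenes, which are not independent replicates, the ratio had a Spearman's rho of −0.14 with identity and −0.24 with mean CPM. A further 23 transcribed processed pseudogenes at 5 CPM or more, a separate class of the table, had a median ratio of 1.57.

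**Figure D3:**
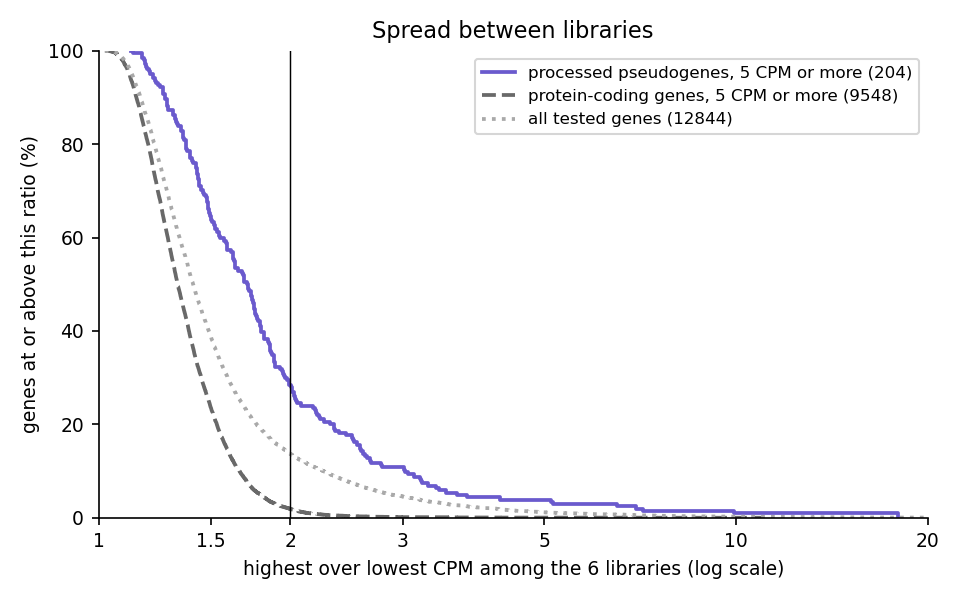
Lines give the percentage of genes (y axis) whose highest library is at least a given multiple of the lowest in CPM (x axis, log scale), for the 204 processed pseudogenes, protein-coding genes at 5 CPM or more, and all tested genes. At 2-fold, marked by the vertical line, the lines stand at 27.9%, 1.89% and 13.7%.

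The largest range was that of Gm17828, 1 of 5 copies of Rpl7a, and 2 of these copies were among the 10 with the largest range. A stretch of 100 coding bases, picked in the same way as for Rps10, is shown because it tells the 5 apart in part only. It covers coding bases 121 to 220 of Rpl7a and lies at chr14:101982544-101982643 (minus strand) in Gm5854, chr17:57839002-57839101 (minus strand) in Rpl7a-ps5, chr17:16557366-16557465 (plus strand) in AC121151.1, chr9:72293122-72293221 (minus strand) in Gm17828 and chrX:166854331-166854430 (plus strand) in Rpl7a-ps11, with capitals as above.
Gm5854: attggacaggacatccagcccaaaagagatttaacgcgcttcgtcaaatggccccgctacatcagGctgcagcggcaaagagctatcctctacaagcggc
Rpl7a-ps5: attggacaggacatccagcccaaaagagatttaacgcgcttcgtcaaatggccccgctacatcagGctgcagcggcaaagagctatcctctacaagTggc
AC121151.1: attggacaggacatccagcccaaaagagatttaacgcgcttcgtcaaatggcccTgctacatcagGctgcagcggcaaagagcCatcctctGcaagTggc
Gm17828: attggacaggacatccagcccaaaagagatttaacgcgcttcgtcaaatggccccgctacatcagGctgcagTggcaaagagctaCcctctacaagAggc
Rpl7a-ps11: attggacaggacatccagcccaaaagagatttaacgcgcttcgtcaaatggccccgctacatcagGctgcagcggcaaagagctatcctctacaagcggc
Rpl7a: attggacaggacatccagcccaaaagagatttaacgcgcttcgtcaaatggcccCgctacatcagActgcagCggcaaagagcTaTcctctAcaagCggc
All 5 copies differed from the parent transcript at 1 shared position. Gm5854 and Rpl7a-ps11 had no other difference here and are the same over these 100 bases, while AC121151.1 differed at 5 bases and Gm17828 at 4. Gm17828 had 12.6, 14.04 and 4.24 CPM in Vdbp-labelled replicates 1 to 3 and 2.50, 0.782 and 13.1 CPM in empty-vector replicates 1 to 3, a ratio of 17.9 between its highest and lowest library. Its highest value came from 232 counts (95% exact Poisson interval 12.3 to 15.96 CPM) and its lowest from 13 counts (0.416 to 1.34 CPM), intervals that cover counting error only. Gm5854 had 68.9, 56.7 and 38.3 CPM in Vdbp-labelled and 23.0, 10.6 and 58.2 CPM in empty-vector libraries. In both, empty-vector replicates 1 and 2 were the lowest, and empty-vector replicate 3 lay within the Vdbp-labelled range. Rpl7a-ps5 was also lowest in empty-vector replicates 1 and 2, with 39.5, 32.1 and 36.2 CPM in Vdbp-labelled and 27.4, 21 and 49.4 CPM in empty-vector libraries. Rpl7a-ps11 and AC121151.1 did not share this order: Rpl7a-ps11 had 9.51, 5.99 and 7.13 CPM in Vdbp-labelled and 6.66, 5.41 and 6.76 CPM in empty-vector libraries, and AC121151.1 had 7.94, 4.30 and 12.1 CPM in Vdbp-labelled and 14.5, 11.9 and 11.7 CPM in empty-vector libraries. Rpl7a itself had 219, 217 and 278 CPM in Vdbp-labelled libraries, all above its 143, 189 and 164 CPM in empty-vector libraries.

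Gm3756, a copy of the alpha-tubulin gene Tuba1b (chromosome 9, 31935446 to 31936800, minus strand), showed the opposite order. It had 20.2, 15.4 and 18.6 CPM in Vdbp-labelled replicates 1 to 3, against 70.3, 74.9 and 14.5 CPM in empty-vector replicates 1 to 3. The high values were those of empty-vector replicates 1 and 2, and replicate 3 of that group was the lowest of the 6. Gm14150, the other copy of Tuba1b in the set, had 8.30, 5.93 and 5.01 CPM in Vdbp-labelled and 3.54, 5.05 and 4.19 CPM in empty-vector libraries, and Tuba1b had 1198, 1100 and 1217 CPM in Vdbp-labelled and 1010, 931 and 919 CPM in empty-vector libraries.

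Sumo2 and Ppia each had a copy identical to the parent, and copy and parent were high in different libraries. Gm10241 (chromosome 16, 20176727 to 20177012, minus strand) is identical over its 286 bases to Sumo2, which encodes a ubiquitin-like modifier. It had 36.3, 24.4 and 49.2 CPM in Vdbp-labelled replicates 1 to 3 and 5.56, 29.2 and 55.1 CPM in empty-vector replicates 1 to 3. Sumo2 had 20.2, 73.4 and 18.1 CPM in the Vdbp-labelled libraries and 78.8, 13.9 and 10.6 CPM in the empty-vector libraries. The 2 libraries with the most Sumo2, Vdbp-labelled replicate 2 and empty-vector replicate 1, were the lowest for Gm10241, and the sum of both varied 2.27-fold, against 9.92-fold for the copy and 7.44-fold for the parent. Gm10123 (chromosome 9, 96895658 to 96896147, plus strand) is identical over its 490 bases to Ppia, the peptidyl-prolyl isomerase cyclophilin A. It had 215, 128 and 87.4 CPM in Vdbp-labelled libraries and 300.2, 125 and 331 CPM in empty-vector libraries, while Ppia had 883, 1088 and 1202 CPM in Vdbp-labelled and 1011, 1250 and 592 CPM in empty-vector libraries. Their sum varied 1.49-fold, against 3.79-fold for the copy.

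The rest of the 10 with the largest range had 1 or 2 libraries apart. Gm9824, a copy of Pebp1, an inhibitor of Raf kinase signalling, had 68.8, 18.5 and 13.4 CPM in Vdbp-labelled and 13.7, 34.4 and 20.3 CPM in empty-vector libraries, with Vdbp-labelled replicate 1 the highest. Gm8116, from the carnosine methyltransferase gene Carnmt1, had its lowest value in that library, with 3.39, 13.2 and 13.6 CPM in Vdbp-labelled and 7.45, 13.5 and 14.5 CPM in empty-vector libraries. Gm10705, from the ubiquitin-conjugating enzyme gene Ube2l3, was low in replicate 2 of both groups, with 7.27, 1.27 and 6.30 CPM in Vdbp-labelled and 8.61, 2.53 and 9.10 CPM in empty-vector libraries. Gm12411, from Rpl21, and Gm5805, from Rps14, were lowest in empty-vector replicates 1 and 2, as were 3 of the Rpl7a copies: Gm12411 had 26.3, 29.4 and 12.4 CPM in Vdbp-labelled and 7.27, 4.21 and 27.6 CPM in empty-vector libraries. Gm5805 had 13.6, 14.04 and 17.2 CPM in Vdbp-labelled libraries, all above its 7.02, 4.69 and 12.1 CPM in empty-vector libraries.

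**Figure D4:**
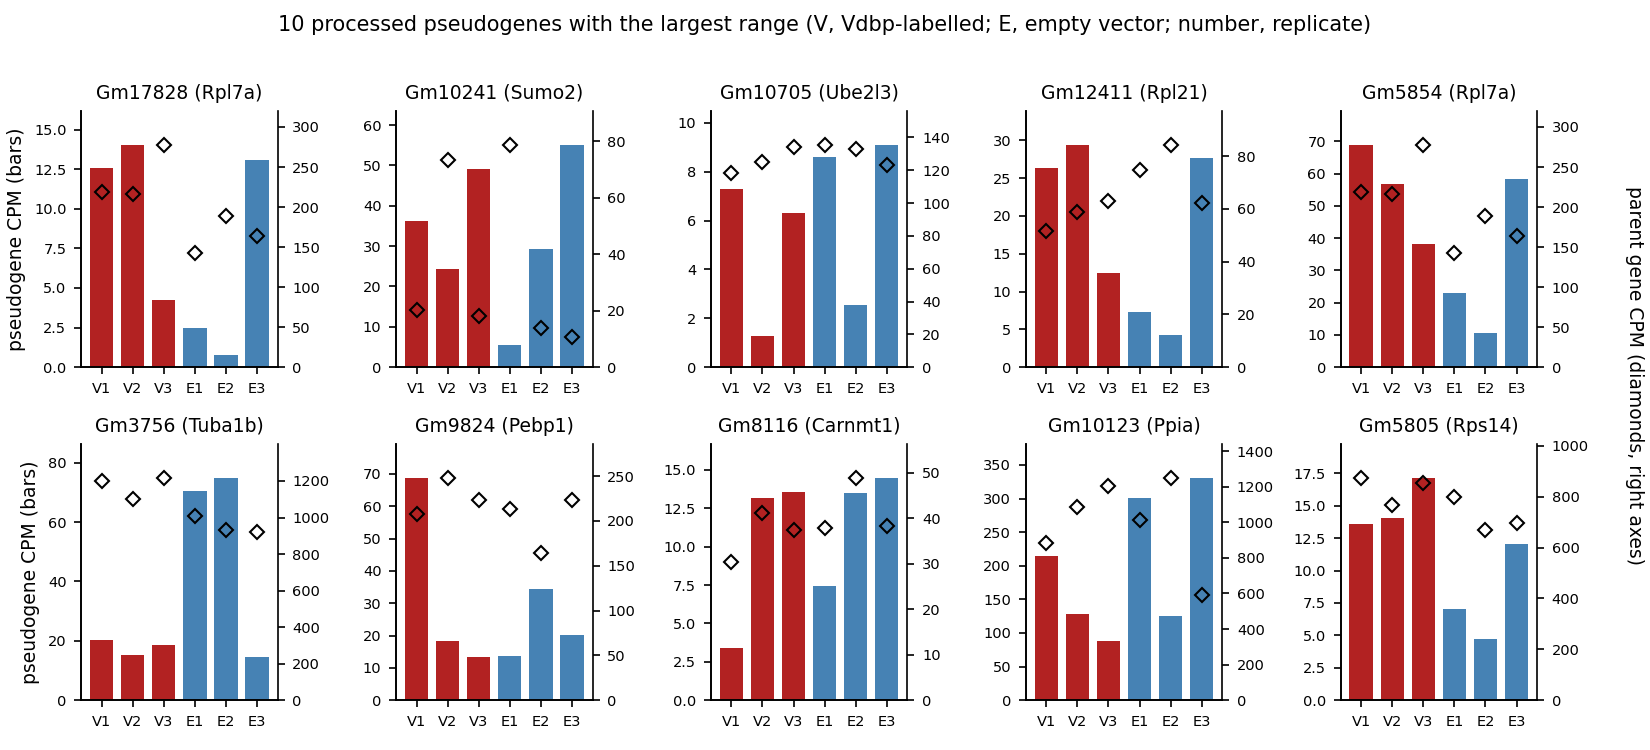
Bars give the CPM of each of the 10 processed pseudogenes with the largest range (left axes) and diamonds the CPM of its parent (right axes) in Vdbp-labelled (V, red) and empty-vector (E, blue) libraries, numbered by replicate. Gm3756 reaches 70.3 and 74.9 CPM in E1 and E2 and 14.5 to 20.2 CPM elsewhere, while Gm17828, Gm12411 and Gm5854 are lowest in E1 and E2.

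At the other end, Gm12966, Gm13509, Gm13736, Gm12338 and Gm10221 had the smallest ranges, from 1.12-fold to 1.18-fold. Gm12966, from the splicing factor Srsf5, had 10.9, 10.1 and 9.83 CPM in Vdbp-labelled and 11.1, 10.3 and 9.87 CPM in empty-vector libraries. Gm13509, from Ap2m1 of the clathrin adaptor, had 54.2, 57.5 and 59.9 CPM in Vdbp-labelled and 54.2, 61.5 and 56.0 CPM in empty-vector libraries. Gm13736 (Srp9 of the signal recognition particle), Gm12338 (the cytochrome oxidase subunit Cox7c) and Gm10221 (the ATP synthase subunit Atp5l) are identical to their parents over the aligned bases, as are the widely varying Gm10241 and Gm10123. Per length, Gm10221 averaged 169 FPKM, against 22.9 FPKM for Atp5l.

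Between the groups, 0 of the 204 pseudogenes and 0 of 12844 tested genes (0%) passed an adjusted p of 0.05 in edgeR's quasi-likelihood test. All 204 passed the filter on low counts. At an unadjusted p under 0.05 stood 55 pseudogenes (27.0%), against 5.35% of all tested genes: 32 were higher in Vdbp-labelled libraries (2.81% of tested genes) and 23 lower (2.54%). Their median log2 fold change was 0.04, against −0.01 for all tested genes. The groups did not overlap in 31, with the Vdbp-labelled libraries above in 20 (5.15% of tested genes) and below in 11 (5.77%). In the fit of 3 libraries against 1, without empty-vector replicates 1 and 2, 12 pseudogenes (5.88%) were under 0.05, against 1.24% of tested genes. Leaving out each library in turn gave 25 pseudogenes without empty-vector replicate 1 (2.92% of tested genes) to 78 without empty-vector replicate 3 (8.85%). DESeq2 called 0 pseudogenes and 4 of 24135 genes (0.0166%), a wider base than the 12844 that adds genes with low counts. At an unadjusted p under 0.05 it had 51 pseudogenes, against 2.59% of the 24135 genes. Limma-voom, on the 12844 genes, called 0 of either, with 58 pseudogenes under an unadjusted 0.05 (5.46% of genes). Without the filter on low counts edgeR called 24 pseudogenes among 89 of 24135 genes (0.369%). These pseudogenes were 12 in each direction and included the 5 of smallest p described next. The count of 0 in edgeR thus depends on that filter. DESeq2 was also run without it but applied its own default filter on mean count before adjustment. Its 0 pseudogenes are therefore not a like-for-like contrast to the 24. For Gm3756 the adjusted p was 6.2e-25 in that edgeR fit and 0.991 in DESeq2. With the filter, edgeR called 9 of 22 genes (0.168%) without empty-vector replicate 3, among them Rpl10a-ps1, Gm9392 and Gm3756. It called 1 of 1 (0.00764%), Rpl30-ps10, without empty-vector replicate 2. With empty-vector replicate 3 as the only library of its group it called 3 of 5 (0.0369%), Rpl30-ps10, Gm12191 and Gm10123, with the spread taken from the Vdbp-labelled libraries.

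The log2 fold changes also followed the GC content of the genes, with a Spearman's rho of 0.40 across the pseudogenes and 0.51 across tested genes, which are not independent replicates. With an offset that removed a smooth trend on length and GC content per library, rho was 0.21 across the pseudogenes and 0.03 across tested genes. In that fit 0 pseudogenes and 2 genes (0.0156%) passed the adjusted threshold, and 64 pseudogenes were at an unadjusted p under 0.05, against 8.87% of tested genes.

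By p, the first 5 pseudogenes were Gm8121, Rpl10a-ps1, Rpl30-ps10, Gm9392 and Gm3756. Gm8121, a copy of Immp1l, a peptidase of the inner mitochondrial membrane (chromosome 5, 57608569 to 57609067, plus strand), had 3.51, 4.90 and 3.21 CPM in Vdbp-labelled libraries, all below 9.71, 7.64 and 7.30 CPM in empty-vector libraries. The Vdbp-labelled values all lie under 5 CPM, so Gm8121 met the limit of the set through its empty-vector libraries. Its log2 fold change was −1.08 ± 0.20 (SE), with an adjusted p of 0.656 in edgeR. Rpl10a-ps1 (chromosome 1, 64993951 to 64994604, minus strand), identical to the large-subunit gene Rpl10a, had 22.7, 24.1 and 23.3 CPM in Vdbp-labelled libraries, all above 12.2, 12.9 and 17.7 CPM in empty-vector libraries. Its log2 fold change was 0.72 ± 0.14 (SE), with an adjusted p of 0.781 in edgeR, as for the next 3. Without empty-vector replicates 1 and 2 the log2 fold change was −0.90 for Gm8121 and 0.41 for Rpl10a-ps1.

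Rpl30-ps10, a copy of Rpl30 of the large subunit, had 5.94, 4.72 and 5.14 CPM in Vdbp-labelled libraries and 15.02, 5.84 and 15.5 CPM in empty-vector libraries, a log2 fold change of −1.19 ± 0.30 (SE). It was −1.52 without empty-vector replicate 2 (adjusted p = 0.00290 in edgeR) and −1.54 without empty-vector replicates 1 and 2 (adjusted p = 0.00296), and over all alternatives its adjusted p ran from 1.12e-07 (no filter) to 1.00. Gm12191, the other copy of Rpl30, had 8.97, 7.62 and 5.85 CPM in Vdbp-labelled and 15.9, 7.28 and 18.7 CPM in empty-vector libraries, and in both copies empty-vector replicate 2 lay within the range of the Vdbp-labelled libraries. Gm9392, a copy of the small GTPase gene Rap1a, had 4.73, 6.53 and 6.10 CPM in Vdbp-labelled libraries and 13.4, 14.4 and 6.58 CPM in empty-vector libraries, a log2 fold change of −0.98 ± 0.26 (SE) that was −0.17 without empty-vector replicates 1 and 2. For Gm3756 the log2 fold change was −1.56 ± 0.43 (SE) with all libraries and 0.33 without that pair, so its direction turned.

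By family, most copies of glycolytic enzymes had higher levels in the Vdbp-labelled libraries, 0 of them past the adjusted threshold. Of 9 tested, 8 had a positive log2 fold change (48.7% of all tested genes), with a median of 0.47 (−0.01 over all tested genes), and 6 were higher at an unadjusted p under 0.05 (2.81% of all tested genes). Gm6560, from pyruvate kinase Pkm, the highest of them, had 72.2, 53.2 and 59.4 CPM in Vdbp-labelled and 51.4, 46.7 and 53.4 CPM in empty-vector libraries. Gm7336, from Gapdh, had 41.3, 34.1 and 39.3 CPM in Vdbp-labelled libraries, all above 22.8, 14.9 and 32.0 CPM in empty-vector libraries. Gm4735, from the enolase gene Eno1b, had 36.2, 30.4 and 23.8 CPM in Vdbp-labelled and 17.2, 14.8 and 24.4 CPM in empty-vector libraries. Ldha-ps2, the copy with a negative value, had 7.15, 6.47 and 6.68 CPM in Vdbp-labelled and 7.51, 9.08 and 6.34 CPM in empty-vector libraries. In 8 of the 9, empty-vector replicates 1 and 2 were the lowest libraries, and without this pair the median was 0.23. The 7 parents had a median of 0.24, with 3 at an unadjusted p under 0.05.

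Of the 68 ribosomal protein copies, 50 had a positive log2 fold change (48.7% of all tested genes), with a median of 0.20, and 13 were higher and 7 lower at an unadjusted p under 0.05. Over all tested genes these shares were 2.81% higher and 2.54% lower, which also holds for the counts of the other lists below. Empty-vector replicates 1 and 2 lay below the other 4 libraries in 28 and above them in 6, and without the pair the median was 0.08. The 42 parents of these copies had a median of 0.12, with 6 higher and 1 lower, and 90 tested ribosomal protein genes had a median of 0.11, with 14 higher and 2 lower. The 13 copies of RNA-binding and nucleolar genes had a median of −0.10, with 0 higher and 2 lower, the 8 mitochondrial copies −0.07, with 1 higher and 2 lower, and the 6 translation factor copies −0.14, with 0 higher and 2 lower. Without empty-vector replicates 1 and 2 these medians were −0.07 for RNA-binding and nucleolar, 0.13 for mitochondrial and −0.03 for translation factor copies. Over all 158 tested parents the median was 0.06, with 15 higher and 5 lower at an unadjusted p under 0.05 and 0 past the adjusted threshold in edgeR.

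**Figure D5:**
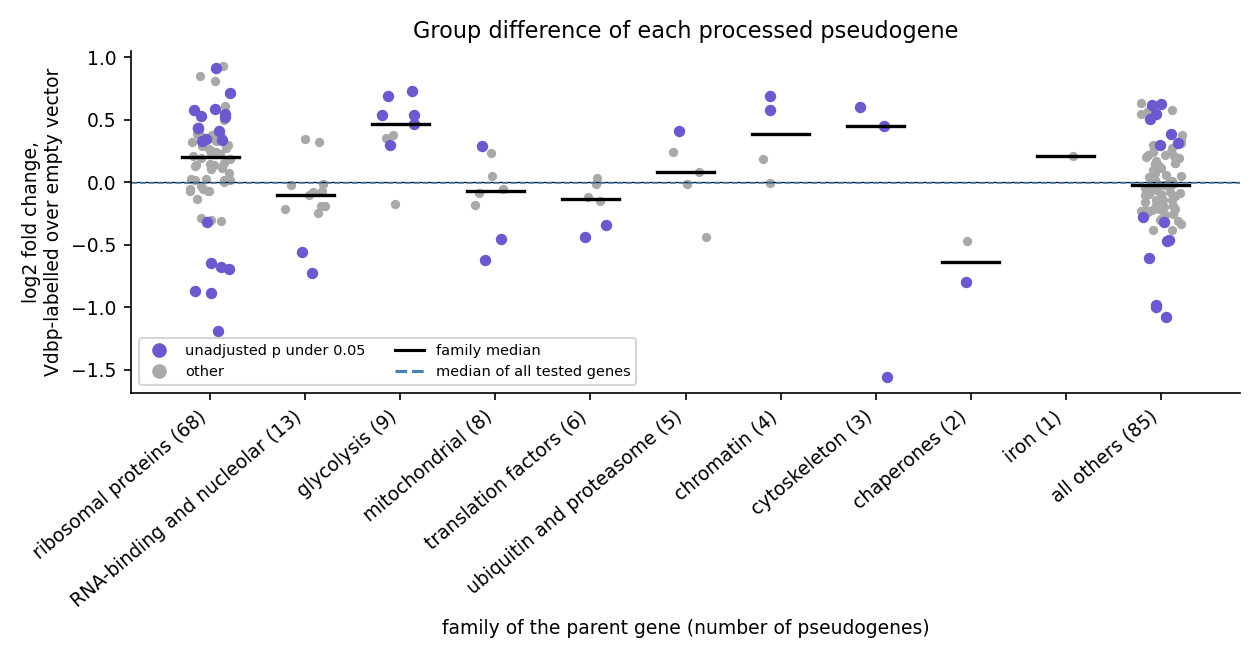
Each point is a processed pseudogene, with its log2 fold change of Vdbp-labelled over empty-vector libraries (y axis) by family of the parent gene (x axis), purple at an unadjusted p under 0.05 in edgeR, and black lines at family medians. The glycolysis median is 0.47 and the ribosomal protein median 0.20, while the dashed line for all tested genes is at −0.01.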

How the data were processed

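Messenger RNA libraries of 6 samples were analysed. Per the submitters' processing notes the authors used HISAT2 and StringTie, without versions. Neither the counting tool with its handling of reads with several matches, nor the genome build or annotation, is given in the sources used here. Counts as deposited are whole numbers per gene, not normalised. The deposited FPKM table of the authors equals these counts divided by gene length and 1 constant per library (largest relative gap 1.34e-13), so it served for levels per length. CPM is the count over the column total.

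Group differences were tested on counts with edgeR 4.0.16 in R 4.3.3: filterByExpr (minimum count 10, minimum total 15, minimum proportion 0.7), TMM, the quasi-likelihood F test, two-sided, adjusted by Benjamini-Hochberg over 12844 genes, threshold 0.05. The rule for the pseudogenes uses the mean over all 6 libraries and not the difference between the groups. Near the limit of 5 CPM a pseudogene can still pass through the group in which it is high, as Gm8121 did. Levels are given without a test. Pseudogene transcripts of GENCODE M21 were aligned to its protein-coding transcripts with BLAST 2.17.0 (e-value at most 1e-10). Start and end were the same as in the deposited table for 200 of 204. Alternatives were RLE and total-count scaling, no filter, DESeq2 1.42.0, limma-voom (limma 3.58.1), a length and GC offset (mgcv 1.9.3), the replicate number as a block, and leaving out libraries. Leaving out empty-vector replicates 1 and 2 together was chosen after seeing the data. The test was checked on simulated data. The pseudogenes, families and tests were chosen with earlier results of these data known. Named by rule were the 15 highest by mean CPM, the 10 with the largest and the 5 with the smallest range, the 5 smallest p, the highest of each of the 5 largest families, their parents, and Gc. All other genes were named after their values were seen. Of the 15 highest, 1 is not reported here.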

Additional observations from a re-analysis of the deposited data

How the results depend on the processing

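The number of pseudogenes was 336 at a limit of 2 CPM and 124 at 10 CPM, and stayed between 158 and 208 under a median or minimum of 5 CPM, TMM scaling and leaving out libraries. They held 0.617% of counts at the limit of 2 CPM and 0.518% at 10 CPM. A range over 1.5-fold was found in 131, over 3-fold in 21, over 2-fold in 44 to 56 when leaving out each library in turn, and in 17 without empty-vector replicates 1 and 2. Genes past the adjusted threshold numbered 89 without the filter on low counts, 4 with DESeq2, 2 with the length and GC offset, 5 without empty-vector replicates 1 and 2, and 0 to 22 without each library in turn. Pseudogenes past it numbered 24 without the filter, 3 without that pair, and 0 to 9 without each library in turn. At an unadjusted p under 0.05 there were 25 without empty-vector replicate 1 (2.92% of tested genes) to 78 without empty-vector replicate 3 (8.85%), and 12 without the pair, where 1 library stands for its group. Gm3756 turned to a log2 fold change of 0.33 without that pair, and over the alternatives its adjusted p ran from 6.2e-25 (no filter) to 1.00. The cause of these shifts was not tested. With the replicate number as a block, 0 pseudogenes passed and 60 were at an unadjusted p under 0.05 (5.41% of tested genes). Whether the numbers pair the libraries could not be decided: the deviations of same-numbered libraries correlated across genes at 0.14, 0.03 and −0.27. Those of differently numbered libraries ran from −0.34 to 0.35, and each deviation is from a mean of only 3 libraries. The precision of low pseudogenes is limited by counting error, as in the 13 counts behind the lowest value of Gm17828.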
